A study of Homo sapiens with 2 samples.

Results

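CD36 and 9 other genes of fatty acid uptake, storage and oxidation were followed from 1 RNA sequencing library of control CWR22rv1 cells to 1 library of CWR22rv1 cells lacking Akt1 and Akt2. The genes were taken by symbol from the expression table of 19607 genes, and all 10 were found. They are CD36, FABP5, SLC27A2, SLC27A4, CPT1A, CPT2, ACADM, PNPLA2, LIPE and PPARG. They were selected on their roles and on their read numbers and fold changes in these same 2 libraries, so their differences below are a description and carry no test. CWR22rv1 is a human androgen receptor-positive prostate cancer line. The Akt1/2 DKO cells (genotype label: Akt1/2 knockout) were made by CRISPR/Cas9 with guides in both genes and grown from single cells after puromycin selection, and the control cells carry the label wild type. The labels do not name the sequenced knockout clone, and with 1 library per condition the loss of Akt1/2, the clone and the library cannot be told apart.

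Long-chain fatty acids enter cells partly through CD36, a scavenger receptor of the plasma membrane, and through the SLC27A (FATP) proteins, and are carried in the cytosol by binding proteins such as FABP5. Acyl-CoA synthetases activate them, the carnitine shuttle of CPT1, a translocase and CPT2 brings them into mitochondria, and β-oxidation enzymes such as ACADM shorten them. PNPLA2 and LIPE release fatty acids from stored triglyceride. PPARG is a nuclear receptor that drives many of these genes in fat cells, and CD36 is among its classical targets.

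The 3 genes whose counting intervals lay wholly beyond 1.5-fold are shown first through the sequence at their annotated starts. CD36 differed there from SLC27A2 and CPT2 in the density of CpG dinucleotides, while SLC27A2 and CPT2 had equal numbers. A link of this density to the fold changes was not tested. Each stretch runs from 250 bases before to 50 bases after a start annotated by RefSeq on GRCh38.p14, 5′ to 3′ on the strand of the gene, with each CpG in capitals.
CD36, chr7:80601957-80602256, plus strand: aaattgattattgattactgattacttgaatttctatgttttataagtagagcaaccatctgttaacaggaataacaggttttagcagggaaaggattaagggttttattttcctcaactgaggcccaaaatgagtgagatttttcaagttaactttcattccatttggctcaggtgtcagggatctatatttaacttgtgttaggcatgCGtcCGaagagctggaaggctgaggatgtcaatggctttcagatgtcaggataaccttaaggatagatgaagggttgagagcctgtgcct
SLC27A2, chr15:50181946-50182245, plus strand: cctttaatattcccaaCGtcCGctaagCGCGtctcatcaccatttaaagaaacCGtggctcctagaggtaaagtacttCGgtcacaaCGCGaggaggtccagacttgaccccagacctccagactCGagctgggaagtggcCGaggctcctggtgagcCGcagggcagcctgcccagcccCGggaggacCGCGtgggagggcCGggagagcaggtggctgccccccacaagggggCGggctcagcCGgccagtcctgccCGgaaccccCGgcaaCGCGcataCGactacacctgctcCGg
CPT2, chr1:53196574-53196873, plus strand: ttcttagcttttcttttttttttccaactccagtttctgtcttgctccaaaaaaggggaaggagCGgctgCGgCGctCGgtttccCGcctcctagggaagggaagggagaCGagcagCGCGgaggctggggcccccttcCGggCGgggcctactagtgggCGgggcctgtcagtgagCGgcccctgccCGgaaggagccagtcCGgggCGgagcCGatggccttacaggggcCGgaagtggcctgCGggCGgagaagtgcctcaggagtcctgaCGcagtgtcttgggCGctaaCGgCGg
The CD36 stretch held 2 CpGs, and 18.2% of the 35116 such windows in the RefSeq set held as few or fewer. The SLC27A2 and CPT2 stretches held 23 each, above the median of 14 over all windows. RefSeq lists 6 starts for CD36, and their windows held 1 to 3 CpGs. Of the other members, SLC27A4 had 38, ACADM 30, CPT1A 13 and PNPLA2 5, the LIPE windows had 24 and 3, and the 6 PPARG windows had 1 to 10. FABP5 had no matching entry, so 9 of the 10 genes and 20 windows were read.

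The same windows were searched on both strands for 2 short motifs. The letters GTAAACA, a core bound by FOXO factors, which are substrates of Akt, stand in 3.42% of all windows and in none of the 20. The half-site read by nuclear receptors, AGGTCA, stands in 13.8% of all windows, and here in the single PNPLA2 window and in 3 of the PPARG windows. The PPARG windows that start at 12288810 and 12288820 overlap and hold the same site. A match or its absence describes these letters in these windows only.

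The depth was similar in both libraries. The estimated reads summed to 9970820 for the control and 10718650 for the knockout cells. A floor of 3 reads corresponds to 0.306 and 0.276 CPM, the reads of a gene scaled to a common library size by TMM. AKT1 went from 2645 reads in the control to 591 in the knockout library and AKT2 from 2362 to 667, so both targeted genes were lower where the label says knockout. All 9 markers of prostate luminal cells had reads in both libraries, with a summed level of 2268 CPM in the control and 3608 CPM in the Akt1/2 DKO library. Of these markers 4 were at least 1.5-fold higher, and KLK3 (184 to 29 reads), KLK2 and HOXB13 were lower. The 5 markers of fat cells summed to 1 and 2 reads, with ADIPOQ, LEP and FABP4 at 0 in both, and the 5 endothelial markers to 2 and 3 reads, with CDH5 at 0. The 5 macrophage markers summed to 56 and 79 reads, of which CD68 gave 50 and 69, and LYZ was at 0. The 5 fibroblast markers went from 1031 to 206 reads, mostly VIM (897 to 84). VIM and COL3A1 (74 to 9) moved the same way as CD36, whereas COL1A1 (55 to 106) moved the opposite way. The part of cells with these markers in the CD36 result was not tested.

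**Figure D1:**
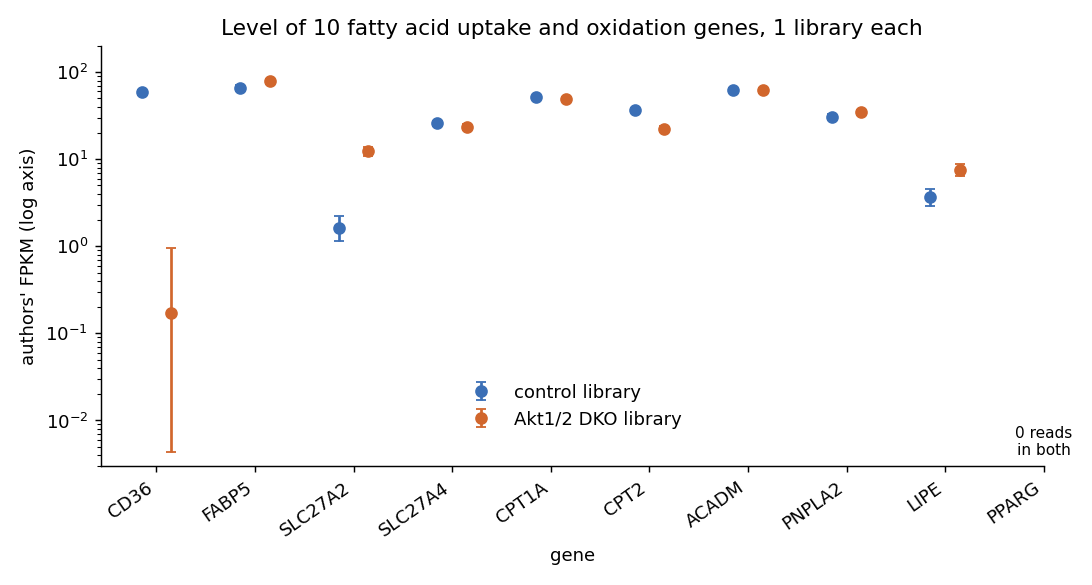
The authors' FPKM (fragments per length and depth, log axis) of the 10 genes in the control library (blue) and the Akt1/2 DKO library (orange), 1 library each, with 95% exact Poisson intervals for counting error. CD36 stood at 58.9 and 0.17 FPKM, SLC27A2 stood at 1.62 and 12.3, and PPARG had 0 reads in both.

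CD36 had 796 reads in the control library and 1 read in the Akt1/2 DKO library. Its level was thus 81.1 CPM in the control and 0.0919 CPM in the knockout cells, the latter under the floor. The scaled ratio was 882.5-fold lower in the Akt1/2 DKO library, with a 95% counting interval from 158-fold to 34900-fold, or a log2 fold change of -9.79 (-15.09 to -7.30). In a bulk sample, fewer cells with CD36 RNA and less CD36 RNA per cell cannot be told apart. By reads, this was the lowest log2 fold change of the 13318 genes with at least 10 reads. That order takes the 1 read of CD36 as it is, whereas genes with 0 reads in one library enter only at the floor. By FPKM the order differed, as PTGFR (12.8 in the control and 0.02 in the Akt1/2 DKO library) had a larger fold drop than CD36 (58.9 and 0.17). The gene (ENSG00000135218) spans chr7:80369575-80679277 on the plus strand of GRCh38 in GENCODE release 29. The only overlapping gene in the table was GNAT3 on the opposite strand, with 1 and 0 reads.

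Levels of different genes were set side by side by FPKM, the authors' fragments per kilobase scaled to depth. In the control cells CD36 had 58.9 FPKM (95% counting interval 54.9 to 63.2), next to FABP5 at 65.6 FPKM (60.3 to 71.3) and ACADM at 62.6 FPKM (58.7 to 66.5), and the intervals of these 3 overlapped. In the control library 10.9% of the 14616 genes with an FPKM above 0 were higher than CD36. In the Akt1/2 DKO library CD36 had 0.17 FPKM (0.00430 to 0.947), the lowest level of the 9 genes with reads, and 89.9% of 14853 genes were higher. On the FPKM scale the log2 ratio was -8.44, a smaller drop than by reads. The length that a read and its FPKM imply was 1.35 kb in the control and 0.549 kb in the knockout library. The latter rests on 1 read, so no difference in transcript form is read from it.

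The CD36 family has 2 further members, SCARB1, the receptor for high-density lipoprotein, and SCARB2, a lysosomal membrane protein. SCARB1 had 165 FPKM in the control and 131 FPKM in the Akt1/2 DKO library (2744 and 2492 reads), with a log2 fold change of -0.29. SCARB2 had 50.3 and 45.2 FPKM (2024 and 2039 reads), with a log2 fold change of -0.14. CD36 made up 21.5% of the summed FPKM of the 3 genes in the control and 0.0966% in the knockout cells, where the sum was 176 FPKM instead of 275. The drop to the floor was therefore not shared by either relative.

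**Figure D2:**
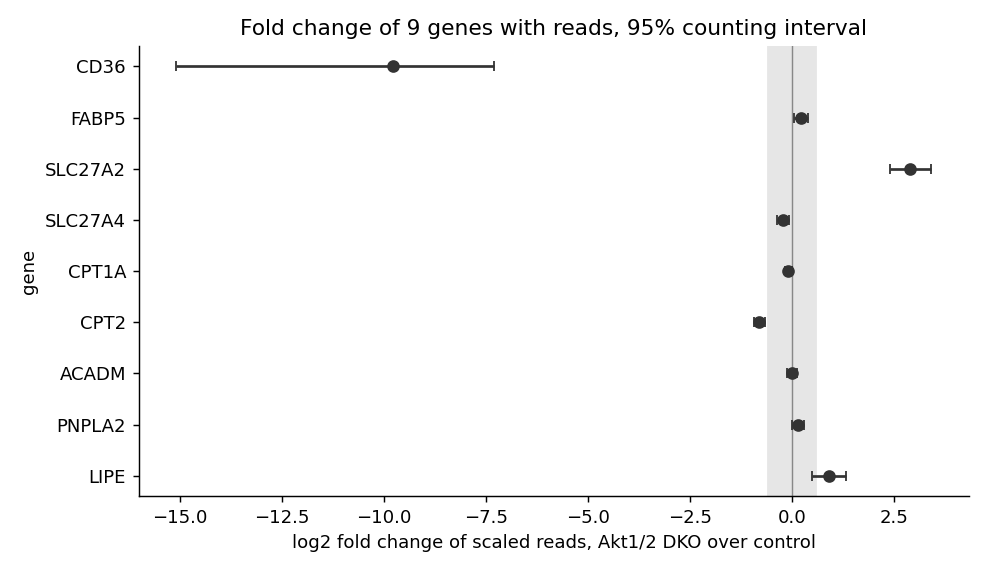
Log2 fold change of TMM-scaled reads, Akt1/2 DKO over control, for the 9 genes with reads, with 95% exact counting intervals as bars and the range under 1.5-fold in grey. CD36 at -9.79 lies far to the left, SLC27A2 at 2.88 to the right, CPT2 just left of the grey band, LIPE at 0.90 with an interval reaching into it, and 5 genes inside it.

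Of the 9 members that reached 10 reads over both libraries, 2 were at least 1.5-fold higher (SLC27A2 and LIPE), 2 at least 1.5-fold lower (CD36 and CPT2) and 5 lay between. Over all 13318 genes with as many reads, 30.9% were at least 1.5-fold apart, 15.9% higher and 15.0% lower, and since the members were picked with these values known, nothing is read from the comparison of the counts. The whole interval lay beyond 1.5-fold for 3 members, CD36, SLC27A2 and CPT2, and for 16.5% of all genes.

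Among the transporters, SLC27A2 went the opposite way to CD36. This gene (ENSG00000140284, chr15:50182196-50236395, plus strand) encodes FATP2, which takes up fatty acids and activates very long chains. It had 39 reads in the control and 318 reads in the Akt1/2 DKO library, and was 7.35-fold higher (95% counting interval 5.26 to 10.5). ATP8B4, which shares 622 bases with it on the opposite strand, had 2 and 7 reads. By FPKM, SLC27A2 was the lowest of the members with reads in the control, at 1.62 (1.15 to 2.21), and stood at 12.3 (11.0 to 13.8) in the knockout cells, still below CD36 in the control.

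SLC27A4 (FATP4), which is placed mostly on internal membranes, had 763 and 726 reads and a log2 fold change of -0.22 (-0.37 to -0.07), inside the 1.5-fold range. Within the family of 6, SLC27A3 had the highest level in both libraries, with 26.7 and 33.9 FPKM, although in the control its counting interval overlapped that of SLC27A4 (25.9 and 23.3 FPKM). SLC27A5 had 10.02 and 15.2 FPKM, SLC27A1 had 4.04 and 4.51 FPKM, and SLC27A6 had 0 reads in both. The summed FPKM of the family was 68.3 in the control and 89.3 in the Akt1/2 DKO library, and the share of SLC27A2 in it was 2.37% and 13.8%.

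FABP5 (ENSG00000164687), the fatty acid-binding protein of epithelial cells, was the member with the highest FPKM in both libraries. It had 561 and 722 reads, and a log2 fold change of 0.22 (0.05 to 0.38). GENCODE names 13 pseudogenes of FABP5, and how reads shared with them were assigned is not given in the sources used here, so its reads are uncertain. Of the 9 other genes of the FABP family, FABP6 had 9 and 36 reads (log2 fold change 1.85, 0.77 to 3.09), FABP2 and FABP7 had 1 and 0 reads each, and the other 6 had 0 in both. FABP5 thus accounted for 98.0% of the FPKM of the family in the control and 94.7% in the knockout cells.

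**Figure D3:**
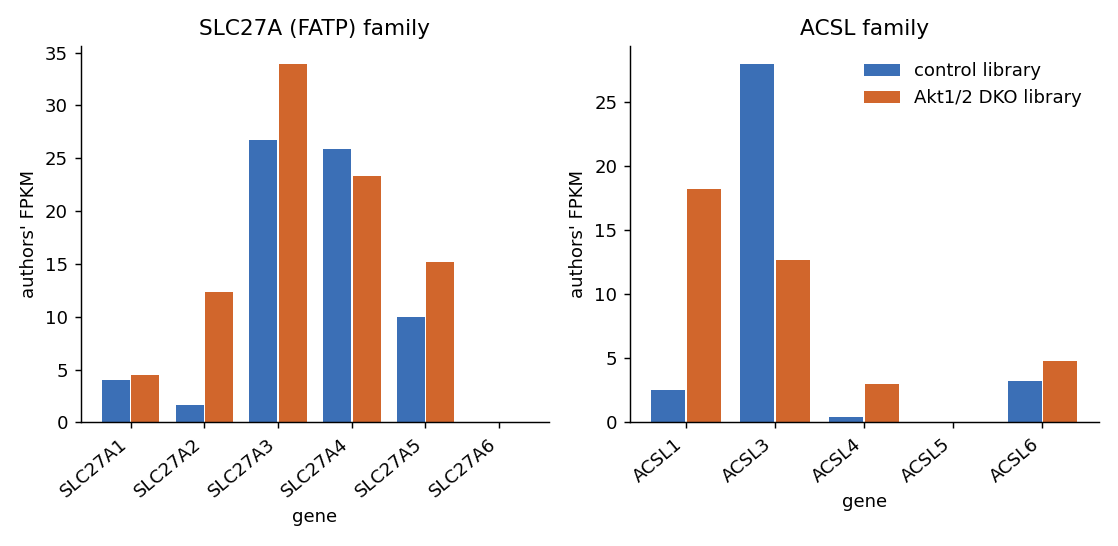
The authors' FPKM of the 6 SLC27A genes (left) and the 5 ACSL genes (right) in the control (blue) and Akt1/2 DKO (orange) library, 1 library each, bars from 0. SLC27A2 stands higher in the knockout cells, and in the ACSL family the tallest bar is ACSL3 in the control and ACSL1 in the knockout cells.

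At the mitochondrial entry, CPT1A and CPT2 differed from each other. CPT1A (ENSG00000110090), the liver isoform, which makes acyl-carnitine at the outer membrane, had 2034 and 2115 reads and a log2 fold change of -0.09 (-0.18 to -0.0040). CPT2 (ENSG00000157184, chr1:53196429-53214197, plus strand), which turns acyl-carnitine back into acyl-CoA at the inner membrane, had 1091 and 694 reads and was 1.74-fold lower (1.58 to 1.92). C1orf123, which overlaps it by 99 bases on the opposite strand, had 190 and 198 reads. In FPKM, CPT1A had 51.2 in the control and 49.1 in the knockout cells, against 36.7 and 22.2 for CPT2, so that CPT2 went from the fifth to the sixth place among the members. In the Akt1/2 DKO library its interval (20.5 to 23.9) overlapped that of SLC27A4 (21.7 to 25.1).

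The other isoforms and the carriers between CPT1 and CPT2 were given by a list of 7 genes, all with at least 10 reads. SLC25A20, the carnitine-acylcarnitine translocase, had 470 and 161 reads and a log2 fold change of -1.69 (-1.96 to -1.43). The brain isoform CPT1C had few reads (17 and 31; log2 fold change 0.72, -0.18 to 1.66), and the muscle isoform CPT1B had 345 and 343. The remaining 4 genes, CRAT, MLYCD, ACACB and SLC22A5, lay between. Of the shuttle itself, the translocase and CPT2 were thus lower while CPT1A and CPT1B were under 1.5-fold apart. SLC25A20 lies on chromosome 3, whose 666 genes with at least 50 reads had a median log2 fold change of -0.53, with 579 of them below 0.

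ACADM (ENSG00000117054), the medium-chain acyl-CoA dehydrogenase, had 1004 reads in the control and 1109 reads in the Akt1/2 DKO library. Its log2 fold change was -0.0053 (-0.13 to 0.12), so its reads bound any difference well under 1.5-fold as far as counting error goes. It stood second by FPKM in both libraries, with 62.6 and 61.7. RABGGTB overlaps it on the same strand by 1379 bases and had 426 and 513 reads.

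The 16 other genes of mitochondrial β-oxidation all had at least 10 reads. ECI2, an enoyl-CoA isomerase, had 25 and 182 reads (log2 fold change 2.72, 2.11 to 3.38), and ACADL, a long-chain dehydrogenase, 64 and 120 (0.76, 0.31 to 1.22), and these 2 were higher. Lower were ACAD9 (1192 and 744 reads, on chromosome 3), DECR1 (523 and 329), HADHB (1464 and 948) and ACAA2 (30 and 19, with an interval that includes 0). HADHB is the thiolase subunit of the trifunctional protein, and its partner HADHA had 4657 and 3930 reads, a log2 fold change of -0.39. Of the abundant genes by FPKM, ACADVL (217 and 203) and ECHS1 (172 and 164) were close in the 2 libraries, while ETFA, a subunit of the electron carrier, had 193 and 132. The median log2 fold change of the list was -0.36, beside 0.0063 for all genes, and -0.23 without its genes on chromosome 3.

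Lipolysis was represented by PNPLA2 and LIPE. PNPLA2 (ENSG00000177666), the triglyceride lipase that starts lipolysis, had 742 and 908 reads and a log2 fold change of 0.14 (0.0009 to 0.28). LIPE (ENSG00000079435, chr19:42401507-42427426, minus strand), hormone-sensitive lipase, had 77 and 159 reads and was 1.86-fold higher (1.41 to 2.48), so that its interval reached below 1.5-fold. In FPKM, LIPE had 3.68 (2.90 to 4.60) and 7.56 (6.43 to 8.83), and PNPLA2 had 30.4 and 34.7. LIPE-AS1 covers all 25920 bases of LIPE on the opposite strand, and since no source used here says that strand was kept, reads of the pair cannot be told apart.

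PPARG (ENSG00000132170, chr3:12287368-12434356, plus strand) had 0 reads in both libraries, which allows up to 3 reads, or 0.306 CPM in the control and 0.276 CPM in the Akt1/2 DKO library. Genes on either side of it were read, for example MKRN2 with 526 and 356 reads and SEC13 with 996 and 953, and of its 10 nearest genes with at least 10 reads 5 were at least 1.5-fold lower and none as much higher. The other receptors of the family were read. PPARA had 306 and 222 reads (log2 fold change -0.61, -0.87 to -0.36) and PPARD had 244 and 251 (-0.11). At the depth of these libraries, CD36 was at 81.1 CPM in control cells in which no read of PPARG was found.

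**Figure D4:**
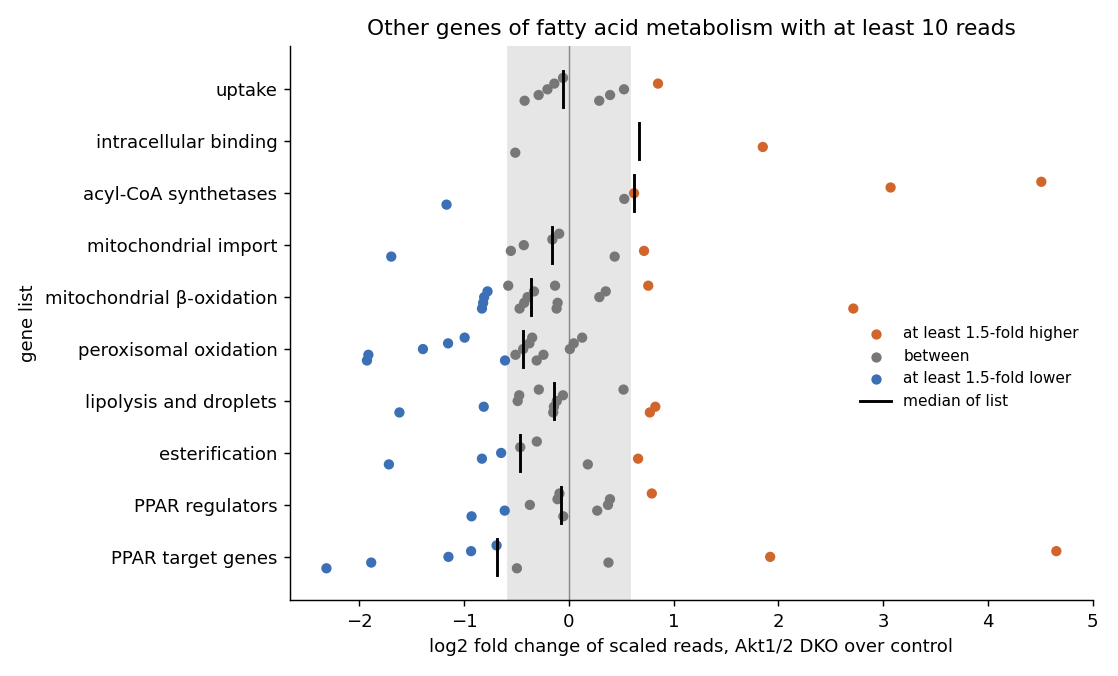
Log2 fold change of TMM-scaled reads, Akt1/2 DKO over control, for the listed genes of fatty acid metabolism with at least 10 reads, 1 point per gene, in 10 lists that leave out the members, with the list median as a black line and the range under 1.5-fold in grey. The acyl-CoA synthetases spread from -1.17 to 4.51, and none of the genes in the list of peroxisomal oxidation lies right of the grey band.

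Around the members, 10 lists of other fatty acid genes held 117 genes, of which 92 had at least 10 reads. Of these 92, 14 were at least 1.5-fold higher, 24 at least 1.5-fold lower and 54 lay between, so that 41.3% were past 1.5-fold, beside 30.9% of all genes (15.9% higher and 15.0% lower). Without any scaling of the libraries the split was 18 higher and 20 lower. Their median log2 fold change was -0.26, beside 0.0063 over all genes, and -0.15 without the 8 genes on chromosome 3. All of these values come from the same 2 libraries as those of the members. The lists were also chosen with earlier results of these data known, so nothing is read from the comparison with all genes.

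The acyl-CoA synthetases, which trap incoming fatty acids as acyl-CoA, moved in both directions. ACSL1 went from 76 reads in the control to 708 in the knockout cells (log2 fold change 3.07, 2.73 to 3.43). ACSL4, which prefers polyunsaturated fatty acids, had 4 and 101 reads (4.51, 3.11 to 6.41). By FPKM, ACSL4 had 0.45 and 3.03, a log2 ratio of 2.75, which lies below that interval. ACSL6 had 99 and 169 reads (0.62, 0.26 to 0.995). ACSL3, found on the endoplasmic reticulum and lipid droplets, went the other way, from 952 to 470 reads (-1.17, -1.33 to -1.01). ACSL5 had 1 read in each library, so no ratio is given. The summed FPKM of the 5 ACSL genes was 34.1 in the control and 38.7 in the knockout cells, while the share of ACSL3 was 82.0% and 32.6% and that of ACSL1 7.30% and 47.1%. This set of shares was looked at after the values had been seen.

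The list of uptake genes beside the members had 11 genes, 9 with at least 10 reads. CAV1, which forms caveolae, was past 1.5-fold on 6 and 12 reads with an interval that includes 0 (-0.67 to 2.55), and none was 1.5-fold lower. By FPKM, CAV1 turned direction (0.53 and 0.42, a log2 ratio of -0.34), and the one uptake gene past 1.5-fold was then SLC27A5 (0.60). LPL, the lipase that frees fatty acids from lipoproteins, had 29 and 24 reads. CD36 was therefore the one gene with such a loss among the uptake genes followed here. In the list of binding proteins, 2 of 10 genes had at least 10 reads, and DBI, which binds acyl-CoA, had 419 and 326.

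Of 15 genes in the list of peroxisomal oxidation with at least 10 reads, none was at least 1.5-fold higher and 6 were lower. This count depends on the list. The pathway names of the deposited table also place ECI2, SLC27A2, ACSL1 and ACSL4 under peroxisome, and all of them were higher. Under that name 10 of 70 genes were higher and 14 lower. AMACR, the racemase of branched-chain fatty acids and a common marker of prostate cancer, had 394 and 116 reads (log2 fold change -1.91, -2.22 to -1.61). PHYH, which starts phytanic acid oxidation, had 393 and 166 (-1.39). ACAA1, the peroxisomal thiolase, had 1203 and 600 (-1.15) and ACOX2, a branched-chain oxidase, 48 and 14 (-1.93), both on chromosome 3. PECR (115 and 64 reads) and SCP2 (1139 and 828) completed the 6. The list had a median of -0.44, and -0.41 without its 3 genes on chromosome 3.

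Among 12 genes of lipolysis and lipid droplets, 2 were higher and 2 lower. CIDEB had 57 and 112 reads and PLIN2, a droplet coat protein, 19 and 36, the latter with an interval that includes 0 (-0.07 to 1.66). MGLL, the monoglyceride lipase that acts after LIPE, lies on chromosome 3 and had 130 and 47 (log2 fold change -1.62, -2.13 to -1.13), and PLIN4 had 38 and 24. ABHD5, the activator of PNPLA2, lay between, with 209 and 190 reads. Of 7 esterification genes, DGAT2, which makes triglyceride, had 172 and 58 reads (-1.72, -2.17 to -1.28), LPIN2 and AGPAT2 were also lower, and LPIN1 was higher, with 409 and 717 reads.

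The PPAR regulators and targets did not move one way. Of 10 regulators, RXRA, the common partner of the PPARs, had 242 and 141 reads (log2 fold change -0.93, -1.24 to -0.62), PPARA was lower as given above, and NRIP1, a corepressor, was higher with 112 and 215 reads. The coactivator PPARGC1A had 0 reads in both libraries. Among 9 other known PPAR target genes, PDK4, the kinase that shuts pyruvate out of oxidation, had 251 and 6999 reads (4.65, 4.47 to 4.84) and UCP3 had 5 and 21. The paper names PDK4 as a common FOXO target and, in data it does not show, reports no significant change of it by quantitative PCR. Which cells that PCR compared is not stated, and the remark comes right after an experiment that silenced the FOXO genes. It may thus be another comparison than the one here, so the reads of PDK4 are not set against it. Among the lower genes were UCP2, an inner-membrane carrier (1031 and 230 reads, log2 fold change -2.31), and ANGPTL4, an inhibitor of LPL (334 and 194). ACOT1 (32 and 22 reads, with an interval from -1.54 to 0.14) and AQP7 (10 and 0 reads) were also lower. AQP7 was 3.696-fold lower with its 0 set to the floor of 3 reads, and its counting interval bounds the drop at 2.49-fold. PDK4 and CD36, both known as PPAR targets, thus had log2 fold changes of opposite sign.

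The pathway names written in the deposited table give the same genes in wider company. Under PPAR signaling, which holds 8 of the 10 members, 45 genes had at least 10 reads, and 8 were higher and 15 lower (51.1% past 1.5-fold), with a median log2 fold change of -0.16. Under fatty acid degradation, 7 of 34 were higher and 6 lower (38.2%), and under peroxisome 10 of 70 were higher and 14 lower (34.3%). Fat digestion and absorption had 3 higher and 4 lower of 15 (46.7%), and regulation of lipolysis in adipocytes 11 and 11 of 38 (57.9%), the latter with AKT1 and AKT2 among its genes. Over all 4669 genes with any pathway name the share was 31.2%, and these pathways overlap in genes and hold the members.

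**Figure D5:**
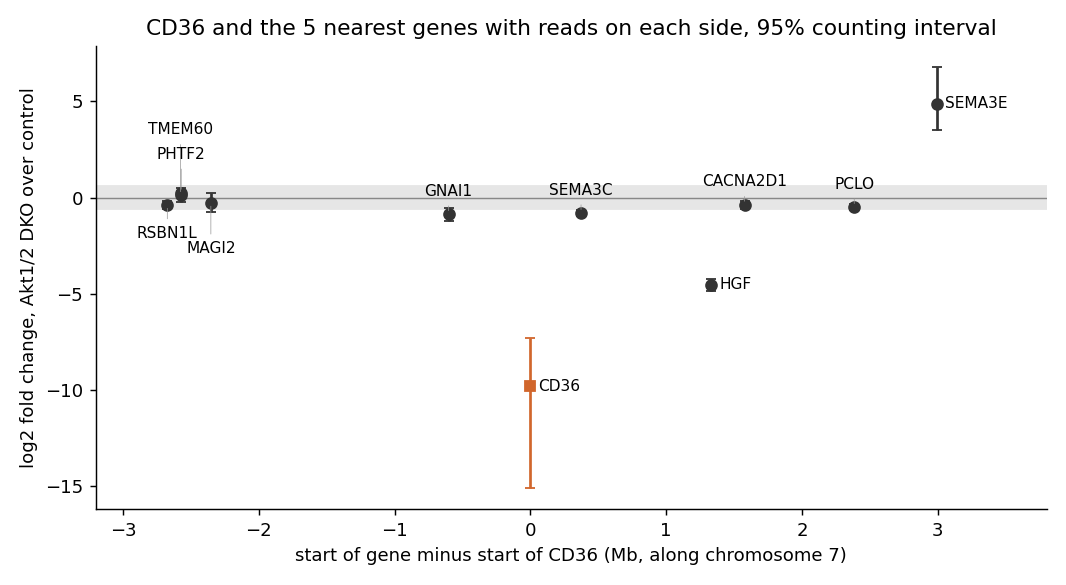
Log2 fold change of TMM-scaled reads, Akt1/2 DKO over control (vertical axis), of CD36 (orange square) and of the 5 nearest genes with at least 10 reads on each side, against the distance of their starts from that of CD36 in megabases; bars are 95% exact counting intervals and the grey band is the range under 1.5-fold. HGF at -4.52 is lower and SEMA3E at 4.90 higher, and the genes next to CD36 are just below the band.

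On chromosome 7 the genes around CD36 were taken only from those with at least 10 reads, so that they had reads follows from this choice. GNAT3, which lies within CD36 and had 1 and 0 reads, is not among them. The nearest gene so taken before CD36, GNAI1, had 218 and 133 reads (log2 fold change -0.86, -1.18 to -0.54). The nearest so taken after CD36, SEMA3C, had 793 and 504 (-0.80, -0.97 to -0.64). Further out, HGF, the ligand of the MET receptor, had 1744 and 84 reads (-4.52, -4.86 to -4.21), and SEMA3E had 4 and 132 (4.90, 3.51 to 6.79). Of the 10 neighbours 1 was thus higher and 3 lower, and their median was -0.36, while that of 565 genes of chromosome 7 with at least 50 reads was 0.087. CD36 at -9.79 stood below every neighbour.

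The genes with the pattern most like that of CD36 were taken as the 5 nearest by distance in log2(CPM + 1) over the 2 libraries. PLTP, the phospholipid transfer protein of plasma, was nearest, with 1042 and 3 reads and a distance of 0.445. PTGFR, the prostaglandin F receptor, had 565 and 1 reads, ARHGAP20 had 576 and 3, NMB, the neuropeptide neuromedin B, 753 and 7, and AKR1C2, a reductase of steroid hormones, 540 and 3. By FPKM in the control, PLTP (59.9), NMB (74.4) and AKR1C2 (49.6) were near CD36, and PTGFR (12.8) and ARHGAP20 (10.9) were below it. With 2 libraries the likeness rests on 2 values per gene. PLTP stands under the PPAR signaling name in the table, as CD36 does. The RefSeq windows of 4 of these genes were not alike in CpGs, with 17 and 19 for PLTP, 12 for PTGFR, 32 for NMB and 3 for AKR1C2. They were not searched for the motifs.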

How the data were processed

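Total RNA was isolated with TRIzol and sequenced from 1 control and 1 Akt1/2 DKO library. Per the labels, the submitters' processing notes name fastp 0.20.0, TopHat, Cufflinks, edgeR and GRCh38.p10, without the role of each. The authors deposited an estimated count of reads per gene, not normalized, and FPKM per gene. Columns of the authors' own comparison (fold changes, p-values) and the other deposited files were not used. Estimated counts (9.44% and 9.24% of genes not whole) were rounded and scaled by TMM (edgeR 4.0.16 in R 4.3.3; ratio of library sizes, Akt1/2 DKO over control, 1.109). Genes reaching 10 reads over both libraries were counted as past 1.5-fold, the size the study states, or not. No replicate exists, so no p-value is given; 95% exact Clopper-Pearson intervals of ratios and exact Poisson intervals of levels (scipy 1.17.1) cover counting error only. A library at 0 reads was set to 3, the floor, and the fold given as a bound. Levels of different genes were compared by FPKM only. Steps were tested on simulated data.

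The members and gene lists were chosen with earlier results of these data known. Named were all members, AKT1 and AKT2, up to 4 rises and 4 falls of largest fold per list among genes with at least 50 reads, genes of lists with few such calls, the 5 genes most like CD36 and the 5 nearest on each side of CD36 and PPARG. Other genes named were chosen after their values were seen. Some results are not reported here. CAVIN1 was matched by gene identifier. Positions come from GENCODE release 29, which holds 19571 of 19607 identifiers. Promoter windows are those of RefSeq. Alternatives were other scalings (total count, DESeq2 1.42.0 size factors, upper quartile), FPKM, an added count, other filters and a 2-fold threshold.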

Additional observations from a re-analysis of the deposited data

How the results depend on the processing

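No paired analysis was possible because there is 1 library per condition, and for the same reason no library could be left out. Differences of this design cannot be set against the spread between cultures, and for CD36 the single read in the knockout cells limits the ratio. Over total count scaling, DESeq2 size factors, upper-quartile scaling, FPKM and an added count, each member's log2 fold change stayed within its counting interval, and CD36 ran from -9.79 to -8.44. Reads without any scaling, a choice added after seeing the data, moved the median of all genes to 0.16 and the log2 fold change of SLC27A4 to -0.0717, of CPT1A to 0.0563, of CPT2 to -0.65, of ACADM to 0.14 and of PNPLA2 to 0.29, and 63.5% of the calls of all genes were then higher, instead of 51.5%. With a 2-fold threshold, 2 members passed (1 higher and 1 lower), and 17 of the genes in the 10 lists (6 higher and 11 lower, instead of 14 and 24), beside 18.0% of all genes (1333 higher and 1058 lower). With at least 10 reads required in each library, CD36 is not counted and 1 member was lower. Under total count and upper-quartile scaling SCP2 and PPARA fell short of 1.5-fold, which left 5 peroxisomal genes and 1 PPAR regulator lower, and by FPKM PPARA stood at -0.41. Without the genes on chromosome 3, 14 listed genes were higher and 19 lower.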

Other observations

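The partners that CD36 meets at the cell surface were looked up after the values of CD36 had been seen. THBS1, which encodes thrombospondin-1, a secreted ligand of CD36, went from 596 reads in the control to 103 in the knockout cells (log2 fold change -2.68, 95% counting interval -2.998 to -2.38). THBS2 had 0 and 1 reads. CD47, another receptor of thrombospondin-1, had 415 and 747 reads and a log2 fold change of 0.70 (0.52 to 0.88), although it lies on chromosome 3, where the median was -0.53. In these 2 libraries the RNA of CD36 and of its ligand were thus both lower in the knockout cells, and that of CD47 was higher.

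Among the genes under the PPAR signaling name in the deposited table, and outside the lists, SCD, the stearoyl-CoA desaturase, had 2804 and 1588 reads (log2 fold change -0.97), and FADS2, the desaturase of polyunsaturated fatty acids, had 319 and 610 (0.79). These genes were picked after their values had been seen.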
